A study of Mus musculus with 3 samples.

Results

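Galectins are small lectins that bind beta-galactosides, and the family was defined by its members' sugar-binding domain. The 10 genes described here are Lgals1, Lgals2, Lgals3, Lgals4, Lgals6, Lgals7, Lgals8, Lgals9 and Lgals12, and Lgals3bp, which is no galectin but encodes a secreted glycoprotein that galectin-3 binds. They were chosen by name from 24346 gene symbols, with earlier results of these data known. RNA-seq of polyadenylated RNA was carried out on distal colon of wild-type (WT) mice of the strain labelled JAX, a supplier's name, aged 8 weeks and kept at steady state. All 3 libraries carry these same labels and form 1 group, so no condition is compared. The tissue is whole rinsed colon, and the labels do not say whether the libraries came from separate animals.

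In textbook terms, galectins lack a signal peptide and leave the cell by an unconventional route. Outside the cell they cross-link glycoproteins and glycolipids, and inside it they mark damaged vesicles and take part in apical sorting. Prototype galectins (Lgals1, Lgals2, Lgals7) hold a lone sugar-binding domain, galectin-3 joins such a domain to a flexible tail, and tandem-repeat galectins (Lgals4, Lgals6, Lgals8, Lgals9, Lgals12) hold a pair of different domains. In the gut, galectin-4 is known as a lectin of enterocytes that binds sulfated glycolipids and sorts apical membrane proteins. Galectin-1 is known as a lectin of connective tissue and muscle.

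The pocket that holds the sugar is what the family shares. It is shown here for the most abundant members in which the pattern given below was found. Each stretch is coding sequence from the GENCODE M21 transcript (GRCm38) paired with the listed RefSeq isoform, with the codons of the pocket's asparagine, tryptophan and glutamate in capitals. The Lgals4 stretches lie at chr7:28835921-28835959 and chr7:28841227-28841265 on the plus strand, that of Lgals3 at chr14:47384690-47384728 (plus), that of Lgals1 at chr15:78929727-78929765 (plus), and those of Lgals9 at chr11:78973060-78973098 and chr11:78965737-78965775 (minus).
Lgals4, first domain: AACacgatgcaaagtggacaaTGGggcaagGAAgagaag
Lgals4, second domain: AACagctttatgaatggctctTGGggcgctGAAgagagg
Lgals3: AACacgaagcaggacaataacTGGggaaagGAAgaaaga
Lgals1: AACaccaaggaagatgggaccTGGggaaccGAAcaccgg
Lgals9, first domain: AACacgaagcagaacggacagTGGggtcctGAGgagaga
Lgals9, second domain: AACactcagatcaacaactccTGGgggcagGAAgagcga

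The pattern searched was asparagine, any 6 residues, tryptophan, glycine, any residue and glutamate, written after these sequences had been read. It was found in 7 of the 9 members with a sequence: 1 time each in Lgals1, Lgals2, Lgals3 and Lgals7 and 2 times each in Lgals4, Lgals8 and Lgals9. Over all 21817 coding genes of the annotation, 19 (0.0871%) held it. These 19 include the 7 members, and the other 12 are genes not named Lgals. The family was defined by this domain, so the choice by name largely fixed the matches in advance. They are no result of these data. No match was found in Lgals3bp or Lgals12, which says only that these letters are not there. For Lgals6 no sequence was used.

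Levels are given as FPKM, the fragments of a transcript scaled to its length and to the library's mapped fragments, summed over the isoforms of a gene. The depth recovered from the deposited 95% intervals was 3.78e+06, 3.79e+06 and 1.24e+06 mapped fragments in replicates 1, 2 and 3. The names of the 3 deposited files were the same apart from the sample number and a running number at the end. In a chi-square test of each gene between libraries, the median ratio of observed to sampling variance was 0.624, beside 0.693 for no difference, and 9 of 12629 genes (0.0713%) passed with Benjamini-Hochberg adjustment, among them 0 of the 9 members tested. At an unadjusted p under 0.05 there were 526 genes, 1 of them a member. A gene's sampling variance was summed over its isoforms, with no term for the reads they share. It can therefore be too large for genes with several isoforms, among them Lgals3, Lgals8 and Lgals9, and the test can miss differences there. Differences can also be missed for Lgals4 and Lgals6, whose deposited intervals were wide, as described below. Separate libraries and parts of 1 library cannot be told apart here, and "library" below stands for a deposited file. The libraries were counted as 1 sample, and each SD below is a measurement error over 3 files, not a spread between mice. If the files are parts of 1 library, it holds no error of library preparation. Of the markers of colon epithelium (Epcam, Cdh1, Vil1, Krt8, Krt18, Krt19, Krt20, Cldn7), 8 of 8 reached 1 FPKM in each library. Of all symbols, 48.5% did.

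Of the 10 members, 9 stood at or above 1 FPKM in every library, beside 48.5% of all symbols. The 9 include Lgals6, whose level is reported as uncertain below. A mean of 100 FPKM or more was reached by Lgals4, Lgals3 and Lgals1, beside 2.59% of all symbols. Together the members made up 0.604% ± 0.0104 (SD) of the summed FPKM. Their median level was 50.7 FPKM, beside 1.23 FPKM for all symbols, those at 0 included in both. The uncertain level of Lgals6 enters this median.

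**Figure D1:**
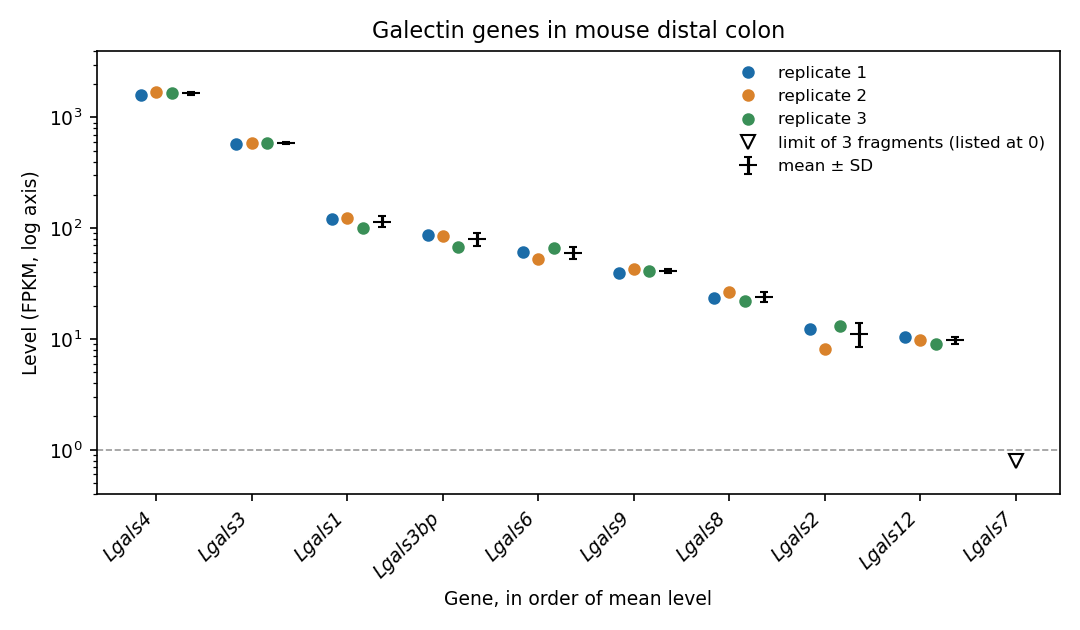
Level of each galectin gene in FPKM on a log axis, with 1 point per replicate and the mean ± SD over 3 libraries beside it; the triangle is the limit of 3 fragments for Lgals7, which was listed at 0, and the dashed line is 1 FPKM. Lgals4 and Lgals3 stand above the other members in every library, and the points of Lgals2 and Lgals12 overlap.

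Lgals4, the enterocyte lectin, was the most abundant member. It stood at 1610 FPKM in replicate 1, 1697 FPKM in replicate 2 and 1653 FPKM in replicate 3 (mean 1653 ± 43.6 FPKM, SD), which put it at rank 17 of all 24346 symbols. It held 64.0% ± 0.608 of the summed FPKM of the 10 members. The gene is listed on chromosome 7 from 28833794 to 28841703 (GRCm38), and its level stood for 18548 fragments over the 3 libraries.

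Lgals3, known for epithelium and macrophages alike, came next. Its level was 578, 593 and 593 FPKM in replicates 1, 2 and 3 (588 ± 8.78 FPKM), at rank 131. The 3 values lay close together, and the ratio of the Lgals4 level to the Lgals3 level was 2.79, 2.86 and 2.79. Lgals3 is listed on chromosome 14 from 47373860 to 47386167.

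Lgals1, the connective tissue lectin on chromosome 15 (78926725 to 78930465), stood at 121, 124 and 99.7 FPKM in the 3 libraries (115 ± 13.1 FPKM, rank 548). Replicate 3, the shallowest library, gave the lowest value, and its deposited interval of 77.1 to 122 FPKM met those of the other libraries. The ratio of the Lgals4 level to the Lgals1 level was 14.5 ± 1.78.

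Lgals3bp (chromosome 11, 118392752 to 118401931) was measured at 86.3, 85.5 and 68.2 FPKM (80.0 ± 10.2 FPKM, rank 800). Replicate 3 was low here too. Its deposited upper bound, 78.7 FPKM, lay under the lower bound of replicate 1, 79.5 FPKM, whereas such a gap was seen in 2.23% of the 8771 genes listed with a lone isoform at a mean of 1 FPKM or more. Among the 6 members of that kind, Lgals3bp was the member with a gap, a comparison chosen after its values were seen. In the chi-square test over all genes the difference of Lgals3bp between libraries had an unadjusted p of 0.0177 and an adjusted p of 0.998, and it did not pass.

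Lgals9, a tandem-repeat galectin known as a ligand of the T cell receptor Tim-3, stood at 39.7, 43.2 and 40.8 FPKM (41.2 ± 1.82 FPKM, rank 1589). It is listed on chromosome 11 from 78962979 to 78984924. Lgals8, whose protein marks damaged vesicles, stood at 23.5, 26.7 and 21.99 FPKM (24.0 ± 2.40 FPKM, rank 2718), on chromosome 13 from 12439402 to 12461738. Over 888 bases the listed span of Lgals8 overlapped Heatr1 on the opposite strand. In a search of both strands, a Heatr1 transcript of the nonsense-mediated decay type matched Lgals8 over 156 bases at 100% identity. Whether the matched bases are those of the overlap was not tested. No source used here says whether the counting used strand, so the level of Lgals8 is uncertain. The span of Lgals2 overlapped Cdc42ep1 on the opposite strand by 38 bases. At 97% identity over 100 bases or more, 0 of the other 8 members with a sequence matched a transcript of another gene. The annotation searched holds no Lgals6 transcript, so this search could not find Lgals6 as a match for Lgals4.

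Lgals2 and Lgals12 were the lowest members detected. Lgals2, a prototype galectin of the digestive epithelium (chromosome 15, 78850860 to 78855529), stood at 12.3, 8.05 and 13.1 FPKM (11.2 ± 2.73 FPKM, rank 5266). Its level rested on 39.8 fragments in all, and the interval of replicate 3 ran from 2.46 to 23.8 FPKM. Lgals12, known from fat cells (chromosome 19, 7596661 to 7607176), stood at 10.5, 9.79 and 8.998 FPKM (9.77 ± 0.756 FPKM, rank 5774) from 228 fragments. The ranges of this pair overlapped, and their order was the same in 2 of 3 libraries, so they were not told apart.

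Lgals7, the galectin of stratified squamous epithelium such as skin, was listed at 0 in every library (chromosome 7, 28864386 to 28866284). The limit that 3 fragments over the 3 libraries allow is 0.789 FPKM, for counting error only. The antisense gene Gm10648 overlaps its listed span over 1899 bases. Of 8 markers of stratified epithelium, Krt1, Krt4, Krt13, Dsg3 and Trp63 were also listed at 0, and the summed level of the list ran from 2.18 to 2.67 FPKM. Krt10 (1.696 ± 0.410 FPKM) was the marker at or above 1 FPKM in every library, while Krt14 and Krt5 had means of 0.650 and 0.132 FPKM.

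For the order of the levels, neighbours were compared by their ranges over the 3 libraries. Apart from Lgals2 and Lgals12, no neighbours overlapped, and each pair kept its order in 3 of 3 libraries. The deposited 95% intervals are given per isoform, so they were compared directly between neighbours with a lone isoform. They overlapped between Lgals1 and Lgals3bp in 1 library, between Lgals3bp and Lgals6 in 1 and between Lgals2 and Lgals12 in 3. For the other neighbours, intervals were built from variances summed over isoforms, which can be too large. These intervals overlapped between Lgals6 and Lgals9 in 2 libraries and between Lgals8 and Lgals2 in 1. The place of Lgals6 in the order is as uncertain as its level.

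Lgals6 is known as a near-copy of Lgals4 that some mouse strains carry and others lack. The files list it at 61.5, 52.4 and 66.9 FPKM (60.3 ± 7.33 FPKM, rank 1079). Its listed span, chromosome 7 from 28834182 to 28841633, lay wholly inside that of Lgals4: it began 388 bases after the start of Lgals4 and ended 70 bases before its end. The GENCODE M21 and RefSeq (GRCm38.p6) gene tables each had an entry for the other 9 members and 0 entries for Lgals6. Lgals4 held 96.3%, 97.005% and 96.1% of the FPKM summed over the pair (96.5% ± 0.468), and Lgals6 the remaining 3.68%, 3.00% and 3.89%. The sum of the pair was 1713 ± 39.4 FPKM.

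The deposited intervals of this pair were wide for the levels, compared with other genes listed with a lone isoform. For a gene with a lone isoform, the number of fragments that the interval stands for (the squared level over the squared standard error) should match the number that the level itself stands for at the library's depth and the gene's length. Over the 3818, 3837 and 3819 such genes over 500 bases long and at 10 FPKM or more in replicates 1, 2 and 3, the median ratio of these numbers was 0.987, 0.985 and 0.988. For Lgals4 it was 0.231, 0.221 and 0.464, and 0 of those genes had a lower ratio in any of the 3 libraries. For Lgals6 it was 0.492, 0.496 and 0.502. The ratios of Lgals1, Lgals2, Lgals3bp and Lgals12 lay between 0.869 and 1.00. Isoforms of members listed with several had low ratios too, for instance 0.471, 0.465 and 0.639 for NM_001145953 of Lgals3 in replicates 1, 2 and 3. In replicate 1 the Lgals4 level stood for 7747 fragments, and its interval of 1534 to 1686 FPKM for 1788. The identity of the 2 sequences was not computed, and how well fragments were assigned between the genes was not tested, so the 60.3 FPKM listed for Lgals6 is reported as uncertain.

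**Figure D2:**
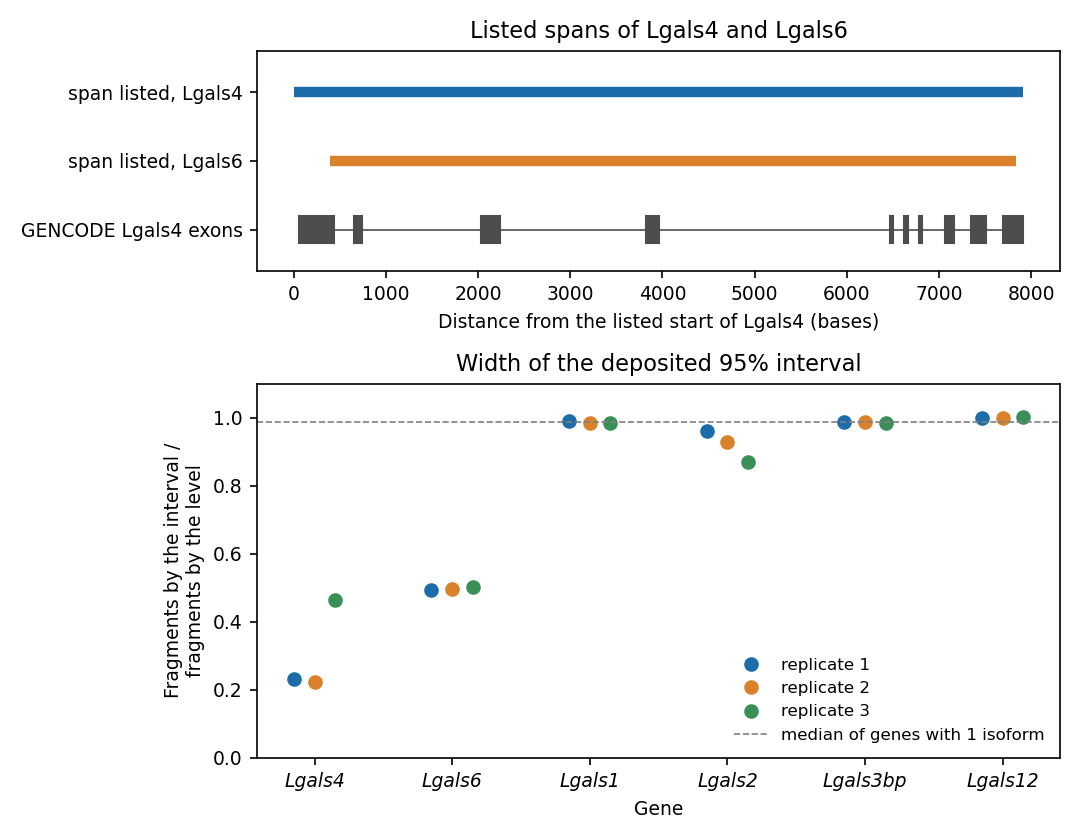
Top, the spans listed for Lgals4 and Lgals6 and the GENCODE exons of Lgals4, by distance in bases from the listed start of Lgals4; bottom, the ratio of fragments by the interval to fragments by the level for 6 members with a lone isoform, 1 point per replicate, with the median of all such genes dashed. The Lgals6 span lies inside the Lgals4 span, and both genes have ratios of at most 0.502 where the other members drawn have 0.869 to 1.00. Members with several isoforms are not drawn.

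Lgals3 was listed with a pair of isoforms. NM_001145953 took 73.6%, 71.5% and 73.9% of the gene's FPKM in replicates 1, 2 and 3 (73.0% ± 1.32), and NM_010705 took the other 27.0%. Their paired GENCODE transcripts have identical coding sequences of 792 bases. They differ by 27 bases at the end of the first exon, which is untranslated, at 47373952 or 47373979 on chromosome 14. The isoforms of Lgals3 therefore encode the same protein, and their shares varied by little between libraries.

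Lgals9 was listed with a longer isoform, NM_010708, and a shorter one, NM_001159301. The longer isoform took 67.2%, 69.8% and 55.3% of the gene's FPKM (64.1% ± 7.76), at 26.7, 30.2 and 22.5 FPKM. The shorter isoform stood at 13.01, 13.1 and 18.2 FPKM. The longer isoform was the higher in 3 of 3 libraries, but its interval in replicate 3, 14.0 to 31.1 FPKM, overlapped that of the shorter isoform, 10.03 to 26.4 FPKM. The paired GENCODE transcripts differ inside the coding sequence by exon 5, a whole exon of 93 bases (31 codons) at chr11:78969714-78969806 on the minus strand, between the stretches of the first and second sugar pocket shown above. It is printed because its presence is what separates the pair.
Lgals9 exon 5: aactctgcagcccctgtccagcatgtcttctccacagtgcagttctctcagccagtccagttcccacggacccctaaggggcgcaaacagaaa

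The 5 isoforms of Lgals8 were split differently in each library, although the gene's sum was steady. NM_001291055 took 54.4% and 64.1% of the FPKM in replicates 1 and 2 and 1.76% in replicate 3. NM_018886 took 35.8%, 10.04% and 54.7%, and NM_001199043 took 9.84%, 9.96% and 43.3%. NM_001291060 (10.01%) and NM_001291057 (5.84%) were above 1% in replicate 2 only. In the paired GENCODE transcripts, NM_001291055 holds 27 coding bases (9 codons) of exon 5 that NM_018886 lacks, at chr13:12453258-12453284 on the minus strand. Only inner exons of NM_001291055 were compared, so other coding differences may exist. These bases are shown because they are a coding difference between the isoforms that led in different libraries.
Lgals8 exon 5, added bases: gcaagtgcccttccacacacactgggg

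For NM_001291055 the deposited interval was 9.94 to 15.6 FPKM in replicate 1, 13.9 to 20.3 in replicate 2 and 0 to 1.47 in replicate 3. Of the 7 member isoforms that averaged 1 FPKM or more in genes with several, 3, all of Lgals8, had intervals of 2 libraries that did not overlap. Such gaps were seen in 46.7% of all 6688 isoforms of that kind, against 2.23% of genes with a lone isoform. The intervals of both Lgals3 isoforms and both Lgals9 isoforms overlapped between all libraries. A difference in isoform use cannot be read for Lgals8 from these files.

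**Figure D3:**
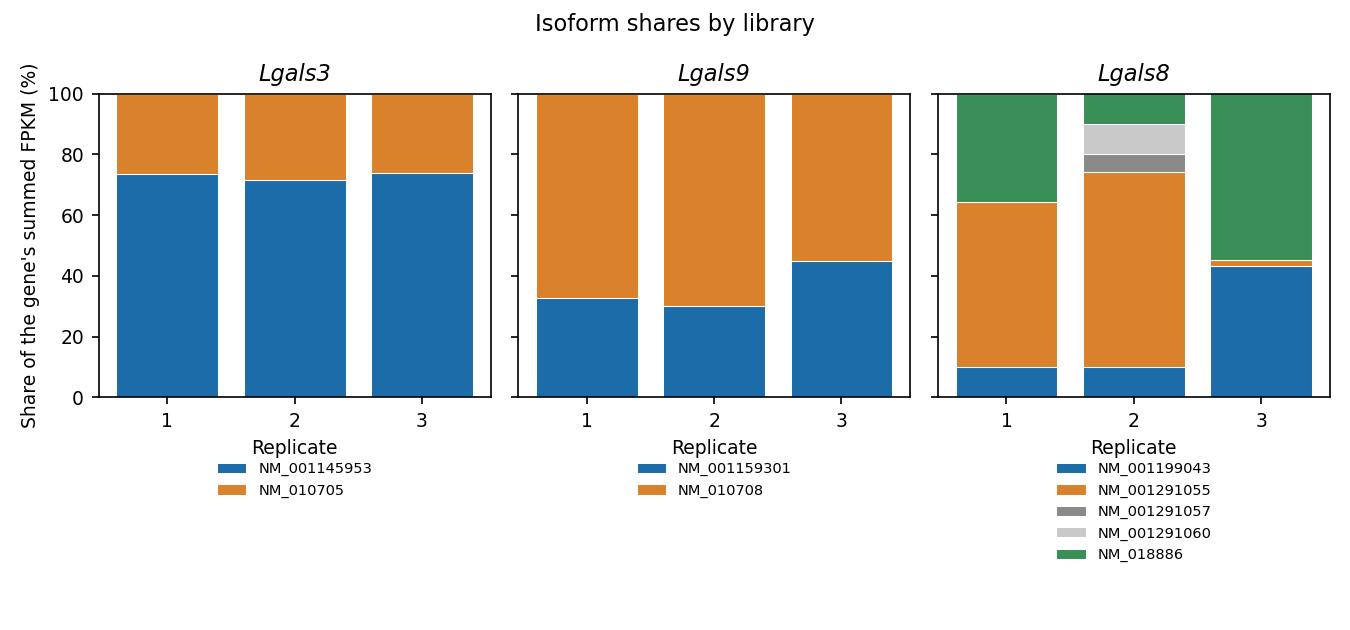
Share of a gene's summed FPKM taken by each listed isoform (%), stacked, for Lgals3, Lgals9 and Lgals8 in replicates 1, 2 and 3. The Lgals3 bars are alike, NM_010708 leads in Lgals9 in every library, and NM_001291055 of Lgals8 takes 64.1% in replicate 2 and 1.76% in replicate 3.

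The members were set in groups by the cells they are best known from. Lgals2, Lgals3, Lgals4 and Lgals6 made up the epithelial group, and Lgals1 the stromal group. Lgals8, Lgals9, Lgals3bp, Lgals7 and Lgals12 were put in neither. The epithelial group summed to 2261, 2351 and 2325 FPKM (2312 ± 46.03 FPKM) and took 94.9%, 95.004% and 95.9% (95.3% ± 0.538) of the FPKM of the 2 groups. This share sets several genes against Lgals1 alone, and most of the epithelial sum is Lgals4. The sum also holds Lgals3, known from macrophages too, and the uncertain level of Lgals6. The share is therefore no measure of the balance between epithelium and stroma. RNA of a whole tissue does not show which cells made a transcript, and fewer cells of a type cannot be told apart from less RNA per cell.

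Markers of these cell types were all present: each of the epithelial, goblet, absorptive, fibroblast and smooth muscle markers reached 1 FPKM in each library. Of all symbols, 48.5% did. The median of the 8 colon epithelium markers was 355 ± 5.77 FPKM, that of 6 absorptive colonocyte markers 394 ± 10.2 FPKM (led by Car4, Ceacam1 and Car1) and that of 6 goblet cell markers 571 ± 5.19 FPKM (led by Zg16, Tff3 and Clca1). Lgals4 stood above 7 of the 8 epithelial markers and close to Krt8 (1682 FPKM), with Krt19 (1401 FPKM) and Epcam (794 FPKM) next. The 6 smooth muscle markers had a median of 412 ± 8.37 FPKM (led by Tagln, Actg2 and Acta2), the 6 fibroblast markers one of 47.9 ± 1.83 FPKM and the 5 endothelial markers one of 3.31 ± 0.135 FPKM. The Lgals1 mean of 115 FPKM lay under every smooth muscle marker, the lowest of which was Cnn1 at 243 FPKM, and inside the range of the fibroblast markers, from Pdgfra (10.7 FPKM) to Dcn (188 FPKM).

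Lgals3 and Lgals9 are also made by immune cells, and Lgals12 by fat and myeloid cells. All 7 macrophage markers reached 1 FPKM in each library, beside 48.5% of all symbols. Their summed level was 118 to 132 FPKM, with C1qa the highest at 30.8 FPKM. The 5 T cell markers summed to 5.79 to 8.82 FPKM, led by Cd3e and Cd3g, and the 4 B cell markers to 3.72 to 5.45 FPKM, with Cd79b the highest. Of the 6 fat cell markers only Fabp4, which endothelium also makes, stood at or above 1 FPKM in every library (19.4, 22.2 and 33.6 FPKM). Adipoq had a mean of 0.416 FPKM, Plin1 of 0.0519 FPKM, and Lep was at 0 throughout, where 3 fragments allow up to 0.110 FPKM. The part of these cells in the levels of Lgals3, Lgals9 and Lgals12 was not tested.

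**Figure D4:**
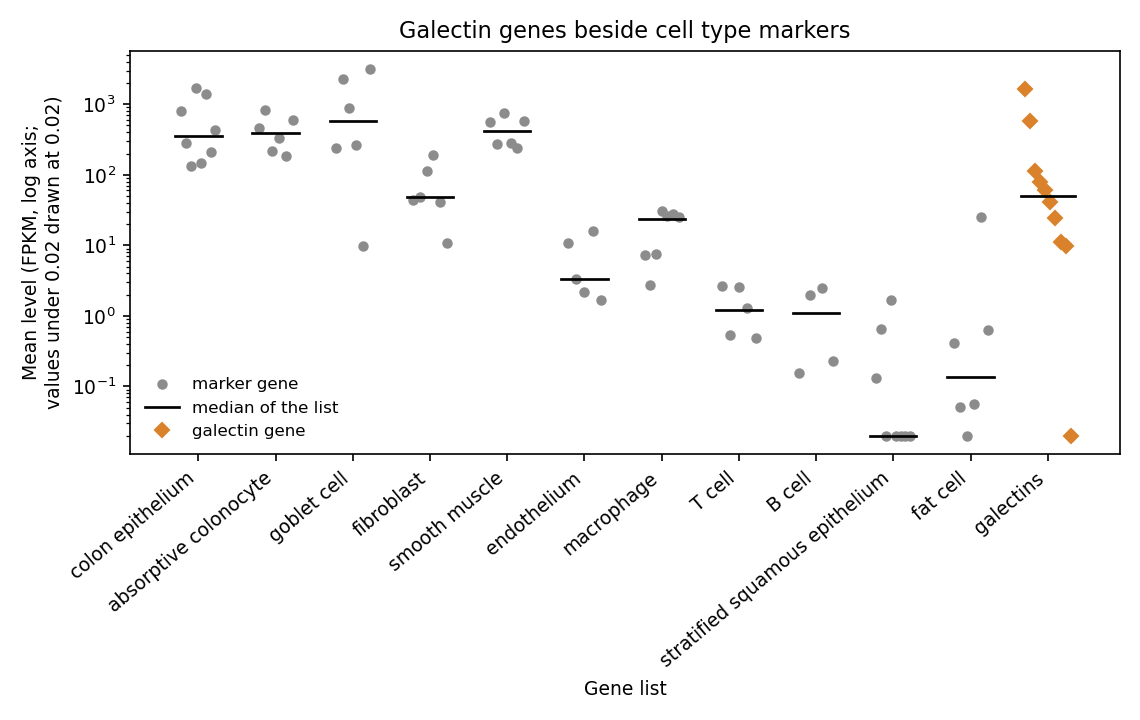
Mean level in FPKM, on a log axis, of each marker gene in 11 cell type lists and of the 10 galectin genes; lines are the medians of the lists, and values under 0.02 are drawn at 0.02. The galectins run from Lgals7, listed at 0, to Lgals4 at the height of the top epithelial markers, and the stratified epithelium and fat cell lists lie mostly under 1 FPKM.

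Galectins bind branched and elongated N-glycans best, so the enzymes that build or cap these glycans were read beside them. Of 12 such genes, 11 reached 1 FPKM in each library, beside 48.5% of all symbols. Their median was 21.2 ± 0.739 FPKM, beside 1.23 FPKM for all symbols. Mgat4a and Mgat4b, which add a branch, led with 101 ± 1.88 and 67.7 ± 5.33 FPKM, and B4galt1, which adds the galactose, followed at 57.01 ± 1.14 FPKM. Mgat5, whose branch is the best known carrier of galectin-3 ligands, stood at 6.05 ± 0.593 FPKM, and the sialyltransferase St3gal1 at 1.19 ± 0.538 FPKM.

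Of 12 glycoproteins known to bind galectins, 10 reached 1 FPKM in each library (median 13.3 ± 0.560 FPKM), beside 48.5% of all symbols. The lysosomal Lamp1 (199 ± 1.95 FPKM) and Lamp2 (67.6 ± 4.15 FPKM) and the integrin subunit Itgb1 (98.6 ± 0.764 FPKM) were highest. The T cell proteins Havcr2, which encodes Tim-3, and Spn had means of 0.730 and 0.333 FPKM. Beside the 41.2 FPKM of Lgals9, Havcr2 was measured at 0.413, 0.206 and 1.57 FPKM. Of 5 genes of galectin-4's glycolipid ligand and apical cargo, 4 reached 1 FPKM in each library, again beside 48.5% of all symbols. Muc13 (843 ± 29.2 FPKM), Ceacam1 (600 ± 10.6 FPKM) and the sulfotransferase Gal3st1, which makes sulfatide (20.5 ± 4.34 FPKM), led. Dpp4 stood at 9.74 ± 0.260 FPKM. Ugt8a, which makes the galactosylceramide that Gal3st1 sulfates, stood at 0.154, 0.231 and 0 FPKM.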

How the data were processed

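The series holds 3 RNA-seq libraries of mouse distal colon in 1 group. The authors deposited 1 isoform table a library, with FPKM, its 95% bounds and the read coverage, a signal per isoform, per the file headers. The submitters' processing notes list Cufflinks 2.2.1, TopHat2 2.1.1 and Bowtie2 2.3.4.3 without settings. They also list GRCm39, but 97.9% of 23026 symbols had a start or end within 1000 bases of the RefSeq gene on GRCm38.p6, so positions are given as GRCm38.

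FPKM were summed per symbol and not rescaled. The upper bound less the FPKM was read as 2 standard errors, and the depth is the Theil-Sen slope of fragments per FPKM on length in genes with a lone isoform over 800 bases, at most 30 fragments and a fragment number within 0.01 of a whole number (65.5%, 65.6% and 65.8% of values). Fragment numbers were not rounded to counts. A mean of 165.5 bases was taken off each length. Limits reflect counting error alone. The deposited intervals were wider than counting error for Lgals4, Lgals6 and isoforms of genes with several, as described above. Neither measures a spread between mice. The test between libraries took genes with a mean of at least 1 FPKM, rescaled to a common median ratio. It was also run on simulated data drawn with the same sampling variances, which cannot show whether those variances are too large. Lists are described, not tested. The rule for named genes took all members and, of each list, the 3 highest and up to 2 lowest genes; some marker lists are given by fewer names, and the epithelial list and the stratified markers at 0 in full. Members and lists were chosen with earlier results of these data known. Copies were sought with BLAST 2.17.0 (megablast). Computations used SciPy 1.17.1, pandas 2.3.3, numpy 2.4.6, Biopython 1.88 and matplotlib 3.10.9 under Python 3.11.15.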

Additional observations from a re-analysis of the deposited data

How the results depend on the processing

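Of 98 alternative values, 16 moved by more than 1 SD (counts by over 1.5 times). Many of the others had to stay: leaving out 1 of 3 libraries cannot move a mean by 1 SD, and genes with a lone isoform have the same highest isoform and sum, so these say nothing about stability. Rescaled to TPM, the levels were 3868 for Lgals4, 1376 for Lgals3, 269 for Lgals1, 187 for Lgals3bp, 141 for Lgals6, 96.5 for Lgals9, 56.3 for Lgals8, 26.1 for Lgals2 and 22.9 for Lgals12, in the same order. Taking only each gene's highest isoform, Lgals3 stood at 429, Lgals9 at 26.5 and Lgals8 at 14.0 FPKM. The epithelial share was 93.8% with Lgals3 in neither group. Genes that differed between libraries numbered 5 among genes with a lone isoform, and 3 to 9 when each replicate was left out in turn (3 without replicate 1, 4 without replicate 2), with 0 members called in each of the 7 settings run. Leaving out 1 replicate at a time, the Lgals9 share of NM_010708 ran from 61.2% to 68.5%. The interval comparison between libraries was chosen after seeing the data. No paired analysis was possible because the libraries form 1 group. The depth limits Lgals2 most, at 39.8 fragments.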

Other observations

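Galectin-3, galectin-8 and galectin-9 are known to mark vesicles that have been torn open, and the genes of that response were read as values. Of 6 such genes, 5 reached 1 FPKM in each library, beside 48.5% of all symbols. The autophagy receptor Tax1bp1 was highest at 172 ± 0.968 FPKM, followed by Pdcd6ip (44.2 ± 1.33 FPKM) and Trim16 (39.1 ± 1.19 FPKM), while Tfeb stood at 6.27 ± 0.891 FPKM. Calcoco2, the receptor that galectin-8 is best known to recruit in human cells, stood at 0.142, 0.354 and 0.431 FPKM. Of a pair of galectin-related genes not among the members, Lgalsl stood at 18.9, 19.5 and 19.0 FPKM. Grifin, known from the lens and among the genes with the pocket pattern, was at 0 throughout, where 3 fragments allow up to 0.912 FPKM.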
